A study of Mus musculus with 6 samples.

Results

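The expression of 10 prostaglandin genes was examined in primary endothelial cell cultures of *Nhe6*-knockout and wildtype mice. The genes were *Ptgs1*, *Ptgs2*, *Ptgis*, *Ptges*, *Ptges2*, *Ptgds*, *Ptger4*, *Ptgfr*, *Ptgir* and *Hpgd*, and they were taken by gene symbol from the 24421 genes of the deposited count table. All 10 had a row, and all 10 had enough reads to be among the 13479 genes tested. *Ptgis* is one of the genes that the study itself picked as strongly downregulated on these same libraries, so its direction here is not independent evidence.

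The cultures came from the stria vascularis with the spiral ligament, the vascular tissue of the cochlear lateral wall, of untreated mice on postnatal days 10 to 12. By the labels there were 3 *Nhe6*-knockout and 3 wildtype cultures, each pooled from at least 6 mice, sorted, grown in endothelial medium and sequenced as 1 library. The *Nhe6*-knockout mice carry a germline disruption, and no agent was given to either genotype. The labels give the C57BL/6N background for both genotypes, while the study's methods name C57BL/6J, so the substrain is not settled. The reads that reached genes numbered between 25587097 and 29126232 per library.

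Wildtype replicate 2 stood apart from the other 5 libraries, at 117 on the first principal component against -31.9 to -6.58. Knockout replicates 1 and 2 lay unusually close together, with a chi-square of 4.91 per gene against 90.1 to 398 for the other 5 pairs of replicates (1 is sampling noise). They differed by more than sampling noise and were kept as 2 replicates, as labelled, but whether they came from separate cultures is not known. If they did not, each knockout n of 3 and its SD rest on 2 cultures. With the pair summed, a choice made after seeing the data, 0 of the 10 prostaglandin genes passed the adjusted threshold in edgeR, 3 were still lower and 2 higher without overlap, and *Ptgis* had a log2 fold change of -2.996 (edgeR adjusted p = 0.621). The labelled endothelial identity was only partly borne out by defining markers. Of 12 endothelial markers, 7 had enough reads to be tested. *Cdh5*, *Eng*, *Flt1*, *Tek* and *Emcn* had 189 to 5039, 840 to 5467, 399 to 3077, 193 to 975 and 397 to 18730 reads per library, and *Kdr* and *Esam* had 1 to 68 and 3 to 230. Of the other 5, *Cldn5* had 0 reads in every library (a count of 0 allows up to 3), *Tie1* at most 2, *Pecam1* at most 8, *Erg* at most 15 and *Vwf* at most 25. Over all 12 endothelial markers the summed level was 398 to 890 CPM (reads scaled to an equal library depth), over 8 fibroblast markers 6260 to 9945, over 10 mural markers 590 to 1277 and over 8 macrophage markers 5.20 to 109. These sums were not divided by gene length and can rest on single abundant genes. *Col1a2* alone had 81635 to 180542 reads per library. The sums can thus be compared between libraries, but not between lists as shares of cell types. In such bulk cultures, fewer cells of a type and less RNA per cell cannot be told apart.

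Prostaglandins are short-range lipid signals. Phospholipases free arachidonic acid from membranes, the cyclooxygenases *Ptgs1* (constitutive) and *Ptgs2* (inducible) turn it into prostaglandin H2, and terminal synthases make the final products. *Ptgis* makes prostacyclin, the vasodilator for which vascular endothelium is best known, *Ptges* and *Ptges2* make prostaglandin E2, and *Ptgds* makes prostaglandin D2. The products act on G protein-coupled receptors, among them *Ptgir* for prostacyclin, *Ptger4* for prostaglandin E2 and *Ptgfr* for prostaglandin F2alpha, and *Hpgd* starts their breakdown.

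The promoters of 9 of the 10 genes were read from RefSeq on GRCm38.p6, from 250 bases before to 50 bases after the annotated start. The 2 shown belong to the inducible cyclooxygenase and to the breakdown enzyme, the only ones of the 9 with CGTCA and with TATAAA. Capitals in the *Ptgs2* promoter (chr1:150099781-150100080, plus strand) mark CGTCA, the core of the cyclic AMP response element, which overlaps the E-box CACGTG. Capitals in the *Hpgd* promoter (chr8:56294302-56294601, plus strand) mark the letters TATAAA.
Ptgs2: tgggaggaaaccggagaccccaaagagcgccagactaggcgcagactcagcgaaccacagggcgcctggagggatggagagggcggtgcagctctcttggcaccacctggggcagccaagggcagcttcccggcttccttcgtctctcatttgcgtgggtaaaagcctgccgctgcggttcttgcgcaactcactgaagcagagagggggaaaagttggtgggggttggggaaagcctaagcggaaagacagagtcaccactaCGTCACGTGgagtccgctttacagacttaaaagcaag
Hpgd: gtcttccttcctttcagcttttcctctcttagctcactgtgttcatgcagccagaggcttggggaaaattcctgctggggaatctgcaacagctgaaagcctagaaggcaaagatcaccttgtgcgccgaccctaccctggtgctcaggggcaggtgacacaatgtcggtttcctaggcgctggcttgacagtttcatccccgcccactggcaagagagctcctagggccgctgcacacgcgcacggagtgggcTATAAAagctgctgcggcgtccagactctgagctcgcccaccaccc

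CGTCA was searched on both strands and lay at positions 14 to 18 after the annotated start of *Ptgs2*, and the E-box, also searched on both strands, lay at positions 17 to 22. *Ptgs2* was the only one of the 9 with CGTCA, which 20.8% of 32851 promoter windows of the same length hold. Among 12 windows of genes listed as cyclic AMP response targets, 8 held it, those of *Nr4a1*, *Nr4a2*, *Nr4a3* and *Fos* included. The E-box was also found for *Ptges2*, and in 7.15% of all windows. TATAAA, searched on the strand of the gene only, was found for *Hpgd* alone among the 9 and in 8.32% of all windows. It lay at positions 5 to 10 after the RefSeq start. In GENCODE, the annotation used for positions below, the gene starts at 56294585, and the match lies before that start. Whether it lies before or after the start thus depends on the annotation. These matches are letters in a window and say nothing of binding in these cultures.

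In every wildtype culture the prostacyclin synthase *Ptgis* was above every *Nhe6*-knockout culture, and so were the prostaglandin F2alpha receptor *Ptgfr* and the breakdown enzyme *Hpgd*. *Ptges* and *Ptger4*, the main prostaglandin E2 synthase and one of its receptors, were above all wildtype cultures in every knockout culture. The other 5 genes overlapped between the genotypes. Lower levels without overlap were thus found for 3 of 10 genes, against 9.57% of all genes tested, and higher levels without overlap for 2 of 10, against 10.3%. The count of lower genes, and the counts and medians of the next paragraph, include *Ptgis*. That gene was picked by the study on these same libraries, so they are not independent of that choice. Values below are normalized counts, that is, reads scaled to the mean library size by TMM (trimmed mean of M-values), unless another unit is named.

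None of the 10 genes passed the threshold of 0.05 on the adjusted p in edgeR's quasi-likelihood test with Benjamini-Hochberg adjustment over all genes, which 0.0668% of the genes tested did. An unadjusted p under 0.05 was found for 3 of the 10 genes, *Ptgis*, *Ptgfr* and *Hpgd*, all lower in the knockout, against 5.71% of all genes in that direction. No prostaglandin gene was higher at that level, against 6.14% of all genes. With the Wald test of DESeq2 the same 3 genes had an adjusted p under 0.05, against 1.82% of all genes lower in that test. Without wildtype replicate 2, 1 of the 10 genes passed in edgeR's test, *Ptgis*, against 1.26% of all genes lower in that fit. The median log2 fold change was -0.67 over the 10 genes and -0.02 over all genes tested, and -0.19 over the 10 without wildtype replicate 2.

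**Figure D1:**
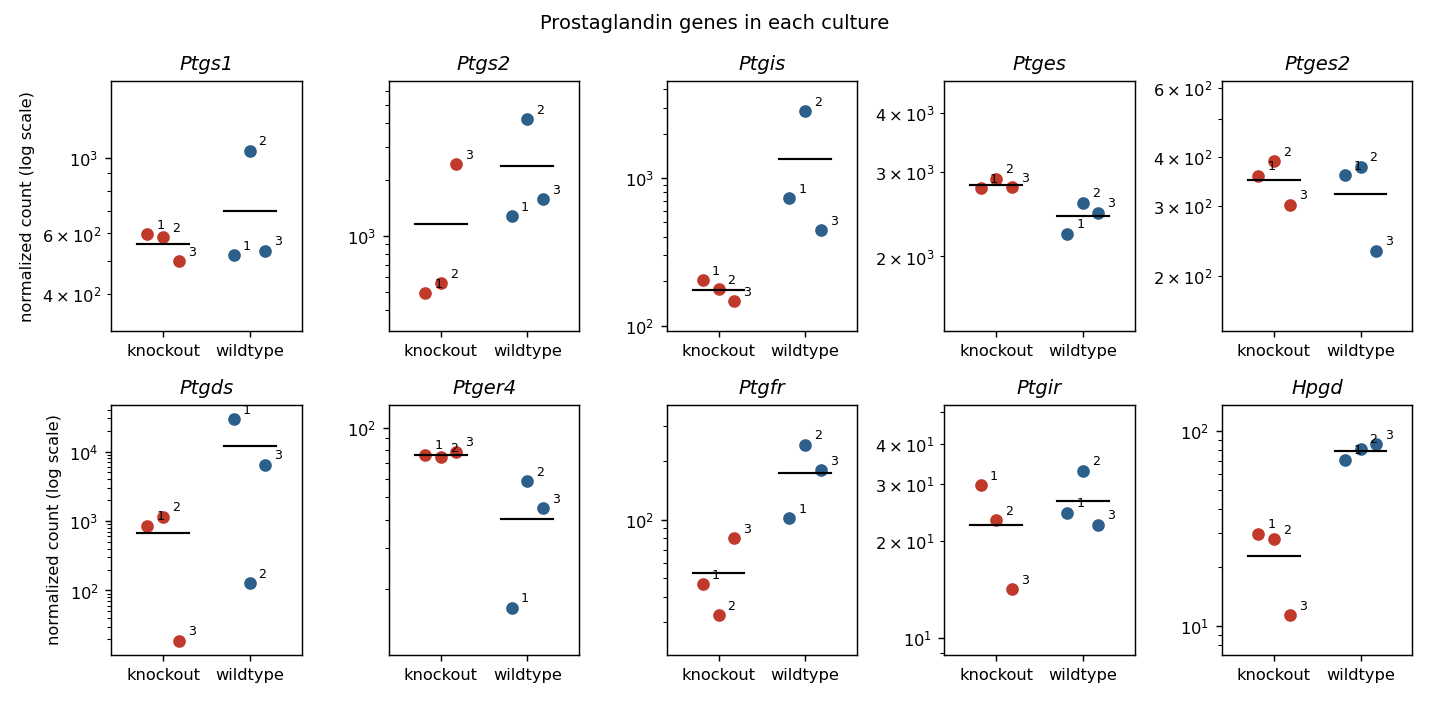
Normalized counts of the 10 prostaglandin genes in each culture, on a log scale that differs between panels, with knockout cultures in red, wildtype in blue, replicate numbers beside the points and black lines at the means. *Ptgis*, *Ptgfr* and *Hpgd* were lower and *Ptges* and *Ptger4* higher in all 3 knockout cultures, and *Ptgds* ran from 18.9 to 29454.

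Among the cyclooxygenases, *Ptgs1* (chromosome 2 of GRCm38 from 36230426 to 36252272) had 597, 585 and 497 normalized counts in the knockout cultures, replicates 1 to 3 in order here and below, and 518, 1048 and 534 in the wildtype cultures. The wildtype replicate 2 value was the highest, and the other 5 lay together with no separation by genotype. The log2 fold change was -0.32 (SE 0.30, edgeR adjusted p = 0.744), where SE, the standard error, is the size of the fold change divided by the square root of the edgeR F statistic. Without wildtype replicate 2 it was 0.084.

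*Ptgs2*, which cells switch on within a short time of a stimulus, lies on chromosome 1 from 150100031 to 150108227. It had 493, 556 and 2423 normalized counts in the knockout cultures and 1270, 4217 and 1569 in the wildtype cultures. Knockout replicates 1 and 2 were the lowest of the 6, but knockout replicate 3 exceeded wildtype replicates 1 and 3, so the genotypes overlapped. Means were 1157 ± 1097 (SD, n = 3) and 2352 ± 1622 (SD, n = 3), and edgeR gave a log2 ratio of knockout to wildtype of -1.02 (SE 0.76, edgeR adjusted p = 0.666). It was -2.17 without knockout replicate 3 and -0.30 without wildtype replicate 2, and it missed the threshold in all 14 alternatives.

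The libraries also differed in genes that respond at once to stimulation. *Nr4a3*, an orphan nuclear receptor gene of that kind, had 4.25, 8.36 and 154 normalized counts in the knockout and 39.1, 365 and 94.1 in the wildtype cultures. Of 48 genes tested in the surrounding pathway lists it was the only one with the 6 libraries in the same order as *Ptgs2*, an order shared by 30 of all other genes tested. *Ptgs2os*, a transcript that runs the opposite way from beside the *Ptgs2* start and was looked at only after its values were seen, had 8, 7 and 13 reads in the knockout and 5, 38 and 17 in the wildtype libraries. Wildtype replicate 2 thus held the most reads of both transcripts of the locus.

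The ratio of *Ptgs2* to *Ptgs1* reads per kilobase of exon, which does not depend on library size, was 0.700, 0.806 and 4.14 in the knockout and 2.08, 3.41 and 2.49 in the wildtype cultures. *Ptgs2* was thus the less abundant isoenzyme in knockout replicates 1 and 2 and the more abundant one in the other 4 cultures. The mean log2 ratios were 0.41 ± 1.42 (SD, n = 3) and 1.38 ± 0.36 (SD, n = 3), a difference of -0.97 (exact two-sided permutation test, p = 0.4, where 3 against 3 allow no less than 0.1).

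*Ptgis* lies on chromosome 2 from 167191805 to 167240604 on the minus strand. It had 203, 177 and 147 normalized counts in the knockout cultures against 731, 2841 and 444 in the wildtype cultures. Each wildtype culture was well above each knockout culture, the knockout cultures were close to each other, and wildtype replicate 2 was far above the other two wildtype cultures. Mean levels were 175 ± 28.1 (SD, n = 3) and 1339 ± 1309 (SD, n = 3), or a 7.64-fold difference in means. The log2 fold change was -2.93 (SE 0.72, edgeR unadjusted p = 0.00556, adjusted p = 0.181). Without wildtype replicate 2 it was -1.75 (SE 0.27, edgeR adjusted p = 0.0355), and over 14 alternatives the adjusted p lay between 3.25e-04 (DESeq2) and 0.621.

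Among the endothelial markers, *Cdh5*, the cadherin of endothelial junctions, had 220, 232 and 179 normalized counts in the knockout and 2508, 5198 and 3468 in the wildtype cultures (log2 fold change -4.15, SE 0.31, edgeR adjusted p = 0.0133). Like *Ptgis*, *Cdh5* was picked by the study as strongly downregulated on these same libraries, so its direction is not independent evidence. *Flt1*, a receptor for vascular endothelial growth factor, had 578, 561 and 378 in the knockout and 920, 3174 and 1150 in the wildtype cultures (log2 fold change -1.79, SE 0.50, edgeR adjusted p = 0.242). Both were lower in every knockout culture and highest in wildtype replicate 2, as *Ptgis* was, while the other 5 tested endothelial markers overlapped between the genotypes. Of these, *Emcn*, *Eng* and *Tek* had log2 fold changes above 0, at 0.68, 0.76 and 0.67, and *Kdr* and *Esam* below 0, at -0.42 and -3.54. *Emcn* and *Eng* were lowest in wildtype replicate 2, at 409 and 866 normalized counts. *Tek*, *Kdr* and *Esam* were highest there, at 1006, 70.1 and 237, so the endothelial markers did not share 1 pattern.

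Wildtype replicate 2 had the highest sum of 10 mural markers, 1277 CPM against 590 to 883 in the other 5 libraries. Of the 10, *Acta2*, *Tagln* and *Cspg4* were highest in that library, with 16267, 5337 and 4407 normalized counts. *Pdgfrb*, *Rgs5*, *Des* and *Abcc9* were lowest there, at 7790, 29.9, 4.13 and 3.09, and *Kcnj8* was at 0 there and in wildtype replicate 1. In wildtype replicates 1 and 3 the mural sum was 590 and 669, and in the knockout cultures 801 to 883. *Pdgfrb*, *Rgs5*, *Des*, *Abcc9* and *Notch3* were higher in the knockout without overlap, as 10.3% of all genes tested were, and the other mural markers overlapped. The sum of 8 fibroblast markers was also highest in wildtype replicate 2, at 9945 CPM against 6260 to 8898. There *Col1a1* and *Col1a2* were highest, while *Col3a1*, *Dcn*, *Lum*, *Pdgfra*, *Fbln1* and *Dpt* were lowest. The summed macrophage markers were lowest in wildtype replicate 2, at 5.20 CPM against 45.3 to 109. The part of these cell types in the *Ptgis* level was not tested.

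*Ptges*, the inducible microsomal prostaglandin E synthase, lies on chromosome 2 from 30889471 to 30929863 on the minus strand and was the steadiest of the 10 genes. It had 2780, 2910 and 2789 normalized counts in the knockout cultures and 2233, 2593 and 2467 in the wildtype cultures. All 3 knockout values exceeded all 3 wildtype values, although the highest of the 6 libraries was only 1.30-fold above the lowest. Mean levels were 2826 ± 72.1 (SD, n = 3) and 2431 ± 183 (SD, n = 3), and edgeR gave a log2 ratio of knockout to wildtype of 0.22 (SE 0.11, edgeR adjusted p = 0.496). Over 14 alternatives the log2 fold change stayed between 0.15 and 0.26 with no adjusted p under 0.274. *Ptges2* (chromosome 2 from 32395896 to 32405772), a second synthase of prostaglandin E2, had 359, 390 and 303 normalized counts in the knockout and 360, 379 and 231 in the wildtype cultures, which overlapped fully (log2 fold change 0.12, SE 0.24, edgeR adjusted p = 0.891). Without wildtype replicate 3 it was -0.082.

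Within each library, *Ptges* was compared with *Ptgis* as the prostaglandin E2 branch against the prostacyclin branch. Per kilobase of exon there were 8.95, 10.8 and 12.4 *Ptges* reads for each *Ptgis* read in the knockout cultures and 1.99, 0.596 and 3.63 in the wildtype cultures. In wildtype replicate 2 alone, *Ptgis* was the more abundant of the pair. The mean log2 ratios were 3.41 ± 0.24 (SD, n = 3) and 0.70 ± 1.33 (SD, n = 3), a difference of 2.71 in the same direction in 3 of 3 knockout cultures (two-sided exact permutation p = 0.1, which is the least that 3 against 3 can give). With *Ptgis* lower and *Ptges* higher without overlap, the ratio had to separate the genotypes. That p was therefore fixed beforehand and adds no evidence on the balance of the branches. The log2 fold changes of *Ptgis* and *Ptges* were -2.93 and 0.22, so the difference lay mostly in *Ptgis*. The difference was 1.98 without wildtype replicate 2 and reached 3.28 at most when any 1 culture was dropped.

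**Figure D2:**
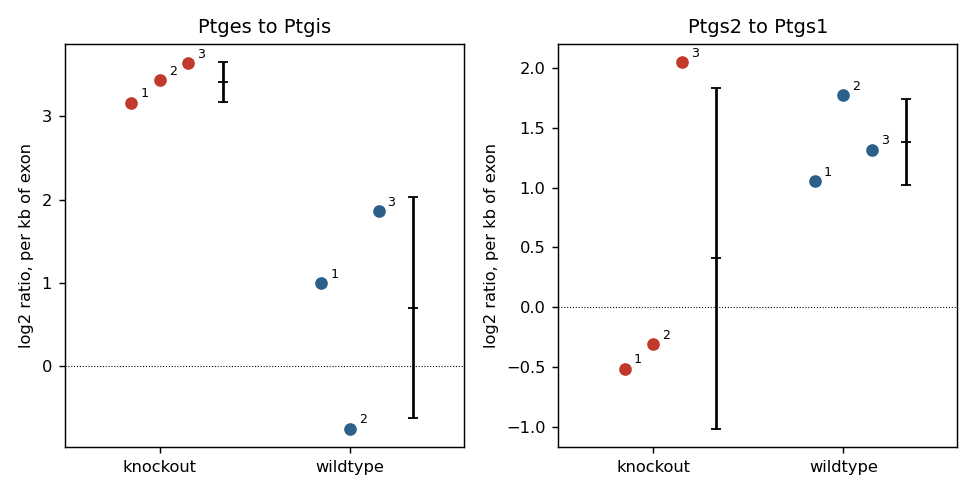
Log2 ratio per kilobase of exon of *Ptges* to *Ptgis* (left) and *Ptgs2* to *Ptgs1* (right) in each culture, with replicate numbers beside the points, and the mean ± SD (n = 3) to the right of each group. The first ratio was 3.16 to 3.63 in the knockout and at most 1.86 in the wildtype cultures, while the second overlapped because knockout replicate 3 was at 2.05.

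*Ptgds*, whose lipocalin-type product both makes prostaglandin D2 and carries lipids, lies on chromosome 2 from 25466709 to 25470046 on the minus strand. It had 854, 1145 and 18.9 normalized counts in the knockout cultures and 29454, 127 and 6432 in the wildtype cultures. The highest library was 1556-fold above the lowest, the widest range of the 10 genes, and both genotypes held high and low cultures. Wildtype replicate 2 was below knockout replicates 1 and 2, so the genotypes overlapped. Its log2 fold change of -4.16 had a standard error of 1.96 and an adjusted p of 0.472 in edgeR's test, and no alternative brought the adjusted p under 0.140.

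The summed level of 8 melanocyte markers, in the same order of knockout replicates 1 to 3 and wildtype replicates 1 to 3, was 24.9, 25.8, 14.7, 30.9, 10.4 and 42.5 CPM. The macrophage sum was 96.1, 105, 45.3, 109, 5.20 and 62.9. Both sums were lowest in the same 2 cultures as *Ptgds*, knockout replicate 3 and wildtype replicate 2. Of the melanocyte markers, *Tyr*, *Tyrp1*, *Dct* and *Mlana* had 23, 271, 166 and 31 reads in wildtype replicate 3. In every other library they had at most 0, 5, 2 and 1. *Mitf*, with 246 to 744 reads, had the most reads of the 8 in each library. *Ptgds* was highest in wildtype replicate 1, where *Tyr* and *Mlana* had 0 reads. No melanocyte or macrophage marker was at 0 in all 6. Their part in the *Ptgds* level was not tested.

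Among the receptors, *Ptgfr* lies on chromosome 3 from 151796502 to 151837630 on the minus strand. It had 46.7, 32.5 and 80.4 normalized counts in the knockout and 102, 241 and 179 in the wildtype cultures. The genotypes did not overlap, but the highest knockout culture (85 reads) and the lowest wildtype culture (104 reads) were close. The log2 fold change was -1.71 (SE 0.48, edgeR unadjusted p = 0.0104, adjusted p = 0.242), and over 14 alternatives the adjusted p lay between 0.0234 (DESeq2) and 0.748. Without wildtype replicate 2 the log2 fold change was -1.40.

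*Ptger4*, a receptor that raises cyclic AMP, lies on chromosome 15 from 5206661 to 5244187 on the minus strand. It had 76.4, 74.3 and 78.5 normalized counts in the knockout and 16.6, 58.8 and 44.9 in the wildtype cultures. The knockout cultures were almost equal, and wildtype replicate 1 was the lowest of the 6. The log2 fold change was 0.93 (SE 0.48, edgeR adjusted p = 0.516) and 1.31 without wildtype replicate 2, and no alternative passed. *Ttc33*, transcribed from the opposite strand, overlaps *Ptger4* and had 1023 to 1258 reads per library. Whether the reads were counted by strand is not given in the sources used here, so part of the low *Ptger4* count is uncertain.

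*Ptgir*, the prostacyclin receptor (chromosome 7 from 16906490 to 16910905), had 28, 25 and 15 reads in the knockout and 25, 32 and 21 in the wildtype libraries. The genotypes overlapped (log2 fold change -0.25, SE 0.42, edgeR adjusted p = 0.866). The receptor for prostacyclin thus gave few reads in either genotype, and *Ptgis* was the more abundant of the 2 genes in every culture, per kilobase too.

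*Hpgd*, the dehydrogenase that inactivates prostaglandins, lies on chromosome 8 from 56294585 to 56321043. It had 29.7, 27.9 and 11.4 normalized counts in the knockout and 71.4, 81.5 and 85.6 in the wildtype cultures. The separation was wide compared with the spread of either genotype, and here wildtype replicate 2 lay between the other two wildtype cultures. Mean levels were 23.0 ± 10.1 (SD, n = 3) and 79.5 ± 7.31 (SD, n = 3), or a 3.46-fold difference in means. The log2 fold change was -1.79 (SE 0.44, edgeR unadjusted p = 0.00577, adjusted p = 0.182) and -1.77 without wildtype replicate 2. Over 14 alternatives the adjusted p lay between 0.00891 (DESeq2) and 0.585, and the fold change between -2.02 and -1.47.

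**Figure D3:**
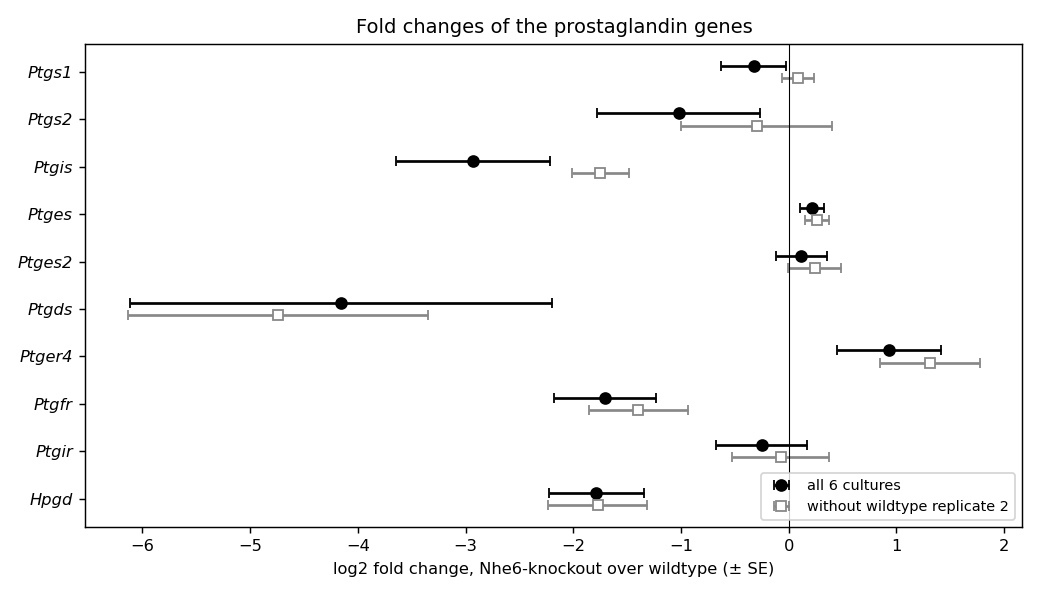
Log2 fold change of each prostaglandin gene, knockout over wildtype, with its standard error, from all 6 cultures (black circles) and without wildtype replicate 2 (grey squares). *Ptgis* was at -2.93 with that culture and -1.75 without it, and *Hpgd* at -1.79 and -1.77.

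Levels can be compared between genes only per length, here as TMM-scaled CPM per kilobase of exon. In the knockout cultures *Ptges* had the highest level, at 26.1 ± 0.67 (SD, n = 3), and its range did not overlap that of the next gene, *Ptgds*, at 14.8 ± 12.9 (SD, n = 3). *Ptgs2* followed at 9.17 ± 8.69 (SD, n = 3) and *Ptgs1* at 5.23 ± 0.51 (SD, n = 3), and the ranges of *Ptgds*, *Ptgs2* and *Ptgs1* overlapped from neighbour to neighbour. *Ptges2* and *Ptgis* came next at 2.52 and 2.48 and did not separate, and *Hpgd*, *Ptger4*, *Ptgfr* and *Ptgir* were all at 0.50 or below.

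In the wildtype cultures *Ptgis* was the third gene, at 18.9 ± 18.5 (SD, n = 3), after being the sixth in the knockout. *Ptgds* was first at 264 ± 340 (SD, n = 3) and *Ptges* second at 22.4 ± 1.68 (SD, n = 3), and the ranges of these 4 highest genes overlapped from neighbour to neighbour. *Ptgs2* at 18.6 ± 12.8 (SD, n = 3) was above *Ptgs1* at 6.54 ± 2.81 (SD, n = 3) without overlap. The lowest were *Ptgir* at 0.29 and *Ptger4* at 0.22, with overlapping ranges. With the length of the longest transcript in place of all exons, 14 of the 20 ranks were kept.

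**Figure D4:**
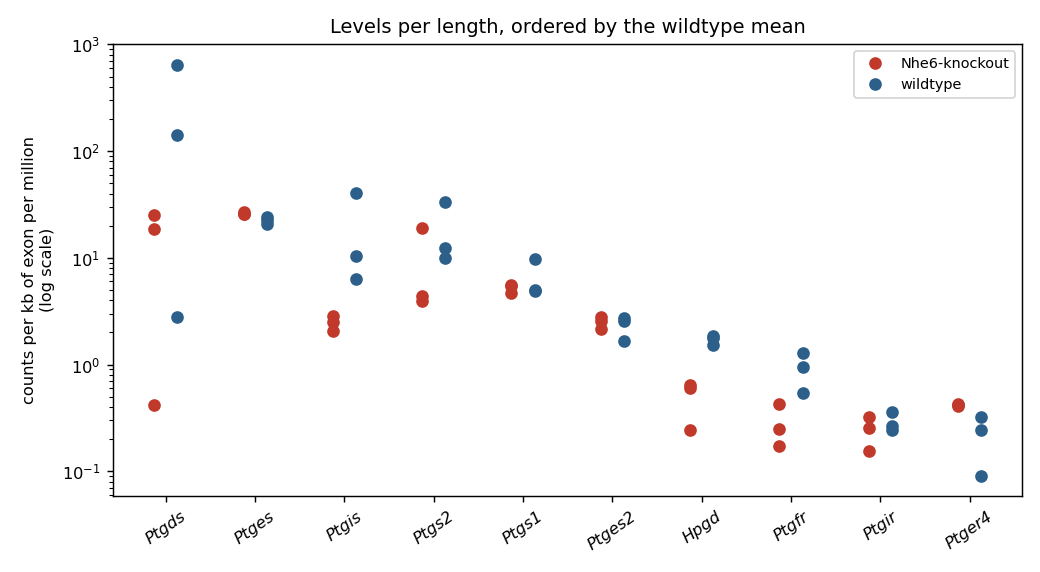
TMM-scaled CPM per kilobase of exon for each gene and culture, on a log scale, ordered by the wildtype mean, with knockout cultures in red and wildtype in blue. *Ptges* lay between 20.6 and 26.9 in all 6 cultures, while *Ptgis* was at most 2.87 in the knockout and at least 6.27 in the wildtype cultures.

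The pathway around these genes was described with lists of 65 further genes, of which 48 were tested. With all 6 libraries, edgeR's adjusted p was at least 0.114 for each of them. With an unadjusted p under 0.05, 6 of the 48 were lower and 3 were higher, where 5.71% and 6.14% of all genes tested were. Without overlap between the genotypes, 5 of the 48 were lower and 3 higher, where 9.57% and 10.3% of all genes were, so the share of lower genes was near the background and that of higher genes below it. The median log2 fold change of the 48 was -0.19, against -0.02 over all genes tested.

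Of the phospholipases and related enzymes that release arachidonate, 6 of the 8 tested lay below 0 on the log2 scale (median -0.44, or -0.085 without wildtype replicate 2). Over all genes tested, 6998 of 13479 lay below 0. *Pla2g4a*, the cytosolic phospholipase that feeds the cyclooxygenases, had 1828, 1678 and 2698 normalized counts in the knockout and 1141, 4021 and 2534 in the wildtype cultures, which overlapped. *Pla2g16*, a phospholipase of fat tissue, had an unadjusted p of 0.0383 and a log2 fold change of -0.85 (SE 0.33, edgeR adjusted p = 0.386), and -1.15 without wildtype replicate 2 (adjusted p = 0.0325), within 0.0325 to 0.878 over its alternatives. *Mgll*, which frees arachidonate from a monoglyceride, had 317, 314 and 287 normalized counts in the knockout and 94.8, 1739 and 80.2 in the wildtype cultures. Its log2 fold change was -1.06 with all libraries and 1.80 without wildtype replicate 2, where the adjusted p was 0.0226, within 0.0226 to 0.999 over its alternatives.

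Of the other synthases 7 of 9 were tested, with log2 fold changes from -0.37 to 0.32. The cochaperone and prostaglandin E synthase *Ptges3* was lower without overlap, at 1591 ± 151 (SD, n = 3) against 1885 ± 69.4 (SD, n = 3), with an adjusted p of 0.477 in edgeR's test. The thromboxane synthase *Tbxas1* had 2 to 15 reads per library and the haematopoietic prostaglandin D synthase *Hpgds* had 0 to 32. *Akr1b3*, an aldose reductase that can make prostaglandin F2alpha, was listed at 0 in each library. Reads placed at several sites were not assigned to genes, so that value gives no measure of its level.

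Among the other receptors the differences were wider. *Ptger2*, the second prostaglandin E2 receptor that raises cyclic AMP, had 10.6, 4.64 and 6.62 normalized counts in the knockout and 40.1, 75.3 and 32.1 in the wildtype cultures, the opposite direction to *Ptger4*. All 3 wildtype values were above all 3 knockout values, and the log2 fold change was -2.74 (SE 0.54, edgeR unadjusted p = 0.00187, adjusted p = 0.114). Without wildtype replicate 2 it was -2.30 (adjusted p = 0.0665), and over 13 alternatives the adjusted p lay between 0.00216 (DESeq2) and 0.511. The prostaglandin D2 receptor *Ptgdr* had 31.8, 26.0 and 4.73 normalized counts in the knockout and 59.6, 3930 and 64.2 in the wildtype cultures, and its log2 fold change was -6.02 with wildtype replicate 2 and -1.58 without it. The prostaglandin E2 receptor *Ptger3* was likewise high in that library alone, with 286 against 7.43 to 40.7 in the other 5.

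*Pparg*, a nuclear receptor that binds fatty acids and prostaglandin D2 derivatives, had 479, 433 and 344 normalized counts in the knockout and 126, 21.7 and 158 in the wildtype cultures. It was higher in each knockout culture, with a log2 fold change of 2.04 (SE 0.65, edgeR unadjusted p = 0.0187, adjusted p = 0.297). Without wildtype replicate 2 it was 1.55 (adjusted p = 0.0346), and the adjusted p lay between 0.0331 (DESeq2) and 0.792 over 14 alternatives.

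Uptake and breakdown beyond *Hpgd* were represented by 4 tested genes. *Slco2a1*, the transporter that brings prostaglandins into cells for breakdown, had 7139, 7032 and 5136 normalized counts in the knockout and 4146, 1165 and 5791 in the wildtype cultures, which overlapped (log2 fold change 0.80, SE 0.53, edgeR adjusted p = 0.629). The reductase *Ptgr2*, which acts after *Hpgd*, was lower in each knockout culture, at 2407 ± 17.4 (SD, n = 3) against 3103 ± 164 (SD, n = 3). Its log2 fold change was -0.37 (SE 0.10, edgeR adjusted p = 0.238), with an adjusted p of 0.0334 in DESeq2, within 0.0334 to 0.813 over 14 alternatives.

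The lipoxygenase arm, which turns the same arachidonate into leukotrienes, was mostly at or near 0, and 3 of its 11 genes were tested. *Alox5*, the enzyme that begins leukotriene synthesis, had 42, 42 and 30 reads in the knockout and 11, 5 and 0 in the wildtype libraries, with no overlap (log2 fold change 2.77, SE 0.92, edgeR unadjusted p = 0.0217, adjusted p = 0.317). The synthase of cysteinyl leukotrienes, *Ltc4s*, had at most 3 reads in any library.

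Of 10 cyclic AMP response targets all were tested, 8 had a log2 fold change below 0 and the median was -1.12, or -0.76 without wildtype replicate 2. *Dusp1*, a phosphatase gene induced by many stimuli, had 927, 956 and 2016 normalized counts in the knockout and 7362, 2427 and 2045 in the wildtype cultures. Its knockout replicate 3 and wildtype replicate 3 were nearly equal, and the log2 fold change was -1.60 (SE 0.58, edgeR unadjusted p = 0.0312, adjusted p = 0.363). *Sik1*, a kinase of the same response, overlapped between the genotypes at a log2 fold change of -0.77 (unadjusted p = 0.0382, adjusted p = 0.386 from edgeR). *Fos* reached its highest value in wildtype replicate 1, at 48875 normalized counts, and not in wildtype replicate 2, at 8875, unlike *Ptgs2*.

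Among 12 genes listed for the induction of *Ptgs2* or *Ptges*, not all of them inducers, 8 were tested. The cytokines *Il1a*, *Il1b*, *Tnf* and *Il6* were below the filter on low counts, with at most 19 reads of *Il6* and 0 of *Il1b* in any library. *Tnfrsf1a*, a receptor for tumour necrosis factor, had 8239 ± 2085 normalized counts (SD, n = 3) in the knockout and 4877 ± 1340 (SD, n = 3) in the wildtype cultures, with overlap (log2 fold change 0.76, SE 0.27, edgeR unadjusted p = 0.0300, adjusted p = 0.358).

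**Figure D5:**
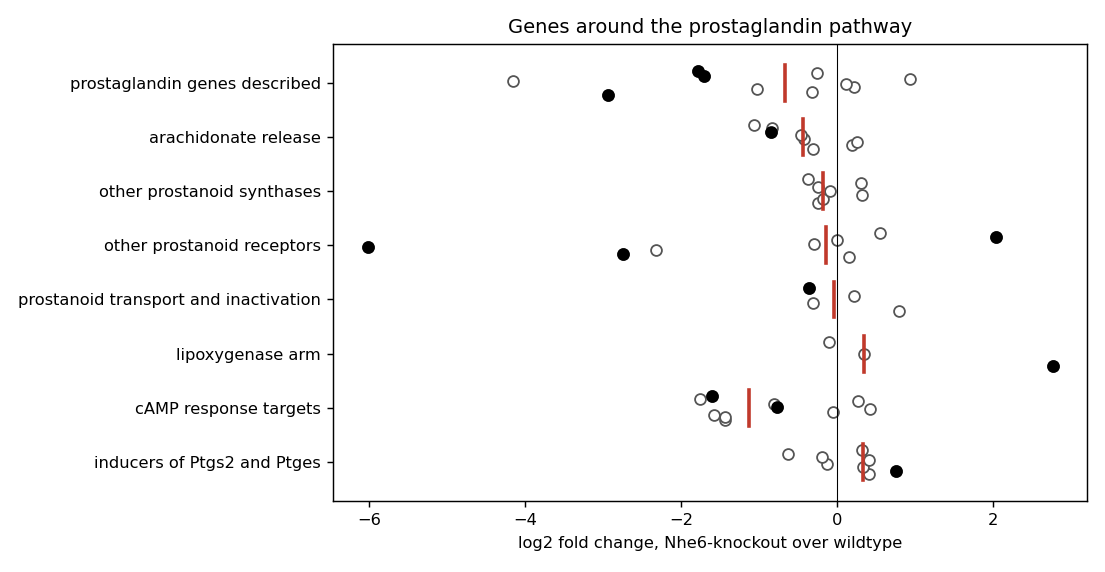
Log2 fold changes, knockout over wildtype, of the 10 prostaglandin genes and of the tested genes of 7 surrounding lists. Each circle is a gene, filled where the unadjusted p was under 0.05, and red lines mark the median of each list, which was lowest for the cyclic AMP response targets at -1.12.

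Genes whose pattern over the 6 libraries was most like *Ptgis* were sought among 11120 tested genes that averaged 100 normalized counts or more. By Pearson's r of log2(normalized count + 0.5), the 5 closest were *Ryk*, *Hsp90aa1*, *Vdac3*, *Pitpnb* and *Gatsl2*, with r between 0.993 and 0.996, and 359 genes reached 0.9. Each of the 5 was lower in all 3 knockout cultures and highest in wildtype replicate 2, and *Ryk*, *Hsp90aa1* and *Vdac3* kept the full order of the 6 libraries. The 5 were chosen for their likeness to *Ptgis*, so this shared pattern follows from the choice. Their range was far smaller, with the highest library 1.15-fold to 1.82-fold above the lowest against 19.4-fold for *Ptgis*. Among the prostaglandin genes themselves the most alike pair was *Ptges* and *Ptger4*, with r = 0.947, followed by *Ptgs2* and *Ptgfr* at 0.851. These are descriptions over 6 libraries that share 2 genotypes and their depth.

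By position, 5 of the 10 genes lie on chromosome 2, *Ptgds*, *Ptges*, *Ptges2*, *Ptgs1* and *Ptgis*. Their differences were unlike: *Ptgis* and *Ptgds* had log2 fold changes of -2.93 and -4.16, *Ptgs1* -0.32, and *Ptges* and *Ptges2* 0.22 and 0.12. The overlapping annotated genes of *Ptgis*, *Ptgs1*, *Ptges*, *Ptgfr* and *Hpgd* have no rows of their own among the counts, so a contribution of theirs could not be measured.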

How the data were processed

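The deposited file holds raw counts of reads per gene symbol for 6 poly(A)-enriched stranded libraries of 75 bp reads. Per the labels' processing notes, the authors' steps named bcl2fastq 2.20.0.422, STAR 2.7.7a, HTSeq 0.13.5, DESeq2 1.26.0 and mm10. Its last 5 lines, reads outside single genes, took 22.2% of all reads and were left out. The strand setting is not given in the sources used here.

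Genes were filtered with filterByExpr (minimum count 10) and tested in R 4.3.3 with edgeR 4.0.16 (quasi-likelihood F, TMM factors 0.976 to 1.03, genotype as the single term), with Benjamini-Hochberg adjustment over all genes and a threshold of 0.05. Alternatives used DESeq2 1.42.0 and limma 3.58.1 (voom). Positions and exon lengths came from GENCODE M21 (GRCm38), which matches mm10. Tests were checked on simulated counts. Members, lists, ratios and the rule for named genes (all members, pathway genes with an unadjusted p under 0.05 or needed for a list's range, and the 5 genes most like Ptgis) were chosen with earlier results of these data known. Other pathway genes named (Pla2g4a, Ptges3, Tbxas1, Hpgds, Akr1b3, Ptger3, Slco2a1, Ltc4s, Nr4a3, Fos and the cytokines) were chosen after their values were seen. Nothing states separate litters per culture, so p-values measure the spread between these cultures. The level of the targeted gene is not reported here.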

Additional observations from a re-analysis of the deposited data

How the results depend on the processing

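With DESeq2's Wald test the number of prostaglandin genes past the threshold was 3 and that of pathway genes 3, and without wildtype replicate 2 these were 1 and 3. The other 12 alternatives gave 0 for both. When any 1 culture was dropped they lay between 0 and 1 and between 0 and 3. The log2 fold changes past the threshold under DESeq2 were -2.94 for *Ptgis*, -1.71 for *Ptgfr* and -1.80 for *Hpgd*, and without wildtype replicate 2 -1.75 for *Ptgis*. The direction turned for *Ptgs1* without wildtype replicate 2 (0.084) and for *Ptges2* without wildtype replicate 3 (-0.082). Of 140 fold changes of the 10 genes under alternatives, 134 kept both direction and side of the threshold. The cause of these shifts was not tested. When any 1 culture was dropped, the log2 fold change of *Ptgis* lay between -3.36 and -1.75, of *Ptgs1* between -0.51 and 0.084, of *Ptges2* between -0.082 and 0.24, of *Ptgfr* between -2.14 and -1.40 and of *Hpgd* between -2.02 and -1.47. The count of genes lower without overlap was 3 or 4.

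Samples with the same replicate number did not deviate together (correlations of 0.19, -0.22 and 0.08), and 2 of 6 libraries were closest to their own number. With a replicate block, 0 of the 10 genes passed, *Ptgis* had a log2 fold change of -2.46 (adjusted p = 0.302 from edgeR), and 2 passed over all genes. Over all genes, 9 passed with all libraries, 627 with DESeq2, 21 without the filter and 21 with at least 10 reads in every library, 395 without wildtype replicate 2 and 0 to 4 without any other culture. Summing knockout replicates 1 and 2, an alternative chosen after seeing the data, left 0 of the 10 genes and 1 over all genes past the threshold. *Ptgir*, *Ptger4* and *Hpgd*, with under 100 reads per library, are limited most by depth.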
